A study of Mus musculus with 9 samples.

Results

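The tumour suppressor p53, encoded by Trp53, and 9 genes that it is known to activate were examined in the livers of aged mice in which hepatocytes had received a guide RNA against cyclin D1. The 10 genes were Trp53, Cdkn1a, Phlda3, Mdm2, Ccng1, Eda2r, Gdf15, Bax, Zmat3 and Trp53inp1. They were selected by symbol from a table of 27179 genes, and all 10 were present and passed the minimum level for testing. The selection was made with the low Cdkn1a and Phlda3 values of these same libraries already known. Differences of the 10 genes between the groups are therefore given as descriptions. How many of them the fits over all genes called is stated beside the share of all genes, and supports nothing here.

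All animals were wild-type C57BL/6J mice injected at 17 months of age, with liver taken 3 weeks later. In every mouse, AAV8 delivered the compact nuclease saCas9 behind TBG, a promoter active in hepatocytes, together with a U6-driven guide. The guide was directed at the Rosa26 locus in the control group (sgRosa26, n = 4) and at Ccnd1 in the other (sgCcnd1, n = 5). Both groups thus carried the vector, the nuclease and a guide, and livers without vector were not analysed here. Poly(A) RNA of a whole piece of the m-lobe was sequenced, so cells other than hepatocytes contributed, and fewer cells of a type cannot be told apart from less RNA per cell. Column headings of the table identify each animal and its guide, and carry no replicate number. Libraries are named here by letters in column order, the controls being A to D and the sgCcnd1 group E to I. The labels do not describe the animals further, so the spread between libraries is taken as that between animals.

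In unstressed cells p53 is kept scarce, mainly by the ubiquitin ligase Mdm2, which p53 itself switches on. DNA damage and other stresses free p53, which then binds paired decamers in the DNA and activates genes for cell cycle arrest, apoptosis, repair and feedback. In liver, Cdkn1a is the target best known for holding hepatocytes out of division. It encodes p21, an inhibitor of cyclin-dependent kinases that also binds complexes of cyclin D.

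Depth ranged from 10.8 to 20.2 M reads (M, mega) per library. Ccnd1 itself was at 744 ± 110 normalized counts in sgRosa26 (SD, n = 4) and 362 ± 40.6 in sgCcnd1 (SD, n = 5), a log2 difference of -1.03. It was the 1 gene of 12993 that passed in limma (adjusted p = 0.0116). That call was lost without B, D, F, H or I (adjusted p from 0.0559 to 0.0852), with log2 differences from -1.02 to -0.96. DESeq2 on reads recovered from the table called 76 genes lower and 41 higher, and 25 and 16 without sgCcnd1 library H. A normalized count is the number of reads of a gene divided by a size factor for its library. One library stood apart: sgCcnd1 library H had 2.00 normalized counts of the Y-linked gene Ddx3y, where the others had 810 to 1154. Sex is not labelled, and whether H came from an animal of another sex than the others was not tested. The hepatocyte markers listed were at similar levels in both groups (mean log2 level 15.3 and 15.4).

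The DNA sites through which p53 acts were looked for first, because all of these genes are grouped by that one property. RefSeq start-site windows of 300 bases (250 before and 50 after an annotated start, build GRCm38.p6) were available for 8 of the 10 genes, in 10 windows. The p53 half-site consensus, a decamer, was searched without mismatch, and its full site, which is a pair of adjoining decamers, with at most 1 mismatch. Both are their own reverse complement in consensus, so a search of one strand covers both. An exact half-site was present in 5 of the 10 windows, each of a different gene, against 8.36% of all 32851 windows of this length. A full site was present in 1 window, the first of Cdkn1a, against 0.0548% of all windows. These settings were chosen after the Cdkn1a sequence had been read. The match lies at chr17:29090928-29090947 on the plus strand, 51 bases before the first annotated start of Cdkn1a. A second annotated start is 2790 bases further on. The full site is shown with 5 flanking bases on each side, 5′ to 3′, and the capitals mark the 20 bases of the site, of which 19 match the consensus.
Cdkn1a: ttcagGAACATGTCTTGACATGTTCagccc

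Outside Cdkn1a, single half-sites were found in Mdm2 (chr10:117710935-117710944, minus strand), Ccng1 (chr11:40755462-40755471, minus strand), Bax (chr7:45467090-45467099, minus strand) and Trp53 (chr11:69580284-69580293, plus strand). They are shown for comparison with the Cdkn1a site, again with the matched bases in capitals. A match is a description of the letters, not evidence of binding.
Mdm2: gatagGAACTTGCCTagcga
Ccng1: tgcccGGGCAAGCCTtggca
Bax: atcccAGGCAAGCTTtgaac
Trp53: cggaaGGACTTGCCCttact

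All 10 genes had a lower mean in sgCcnd1 than in sgRosa26, and the sizes differed widely. Cdkn1a stood at 30.3% of its control mean, Phlda3 at 41.1% and Gdf15 at 55.3%, while Trp53 and Bax stood at 89.3% and 89.2%. The median difference of the 10 genes was -0.38 on the log2(normalized count + 1) scale, against 0.01 for the 12993 genes tested. Of all genes tested, 47.1% had a log2 difference below 0. With limma, 0 of the 10 passed at an adjusted p under 0.05, where 0.0077% of genes tested were called lower. At an unadjusted p under 0.05 there were 7 lower and 0 higher, where 5.74% of genes were lower and 5.22% higher at that level. The edgeR model on recovered reads called 0, and DESeq2 called 3, Cdkn1a, Phlda3 and Ccng1, where it called 0.634% of 11983 genes lower. Without library H the DESeq2 call of Ccng1 was lost, while its DESeq2 log2 difference went from -0.41 to -0.38. The groups did not overlap in 2 of the 10, Cdkn1a and Phlda3, both lower, against 1.97% of genes tested that were lower and 1.92% that were higher without overlap. Nothing is read from these shares, since the genes were chosen with this comparison known.

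**Figure D1:**
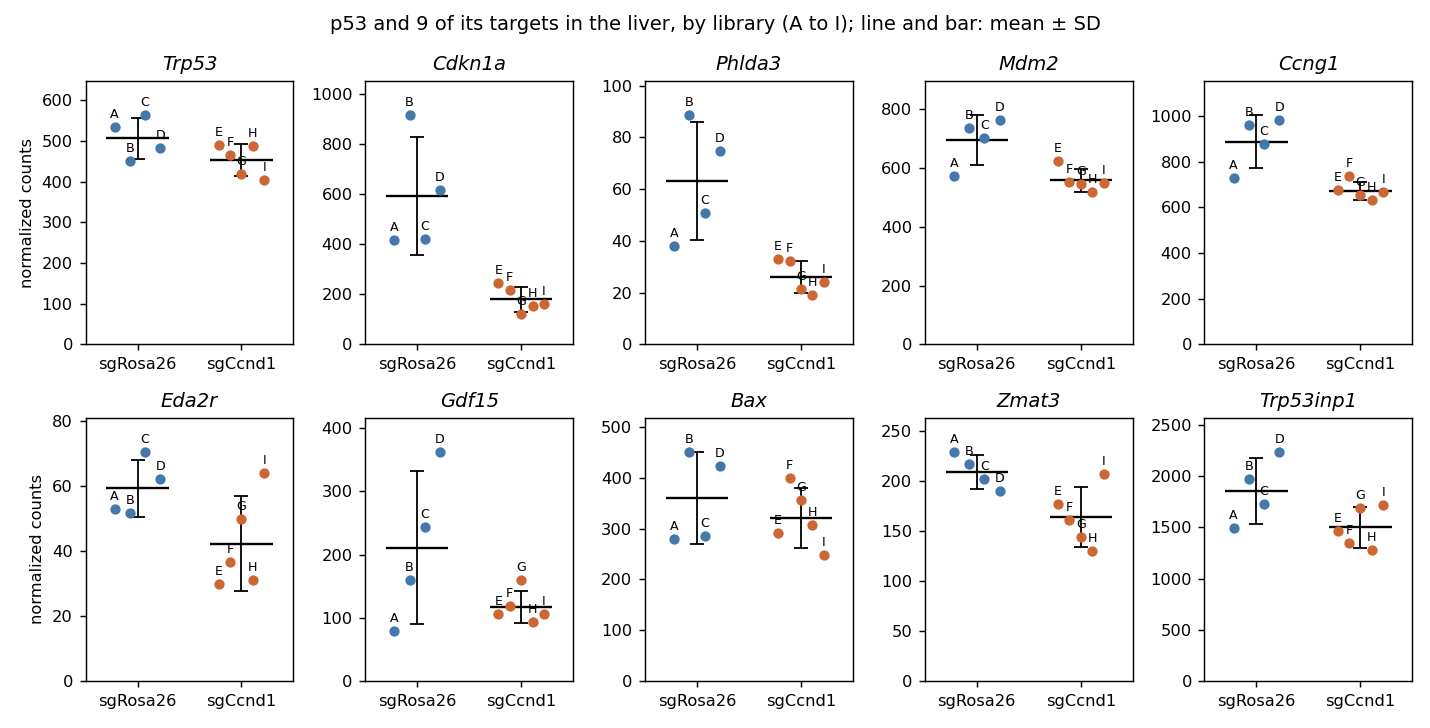
Normalized counts (vertical axes, from 0) of Trp53 and the 9 targets in each library (points A to I) of the sgRosa26 and sgCcnd1 groups, with the group mean (line) and SD (bar). Cdkn1a and Phlda3 are separated between the groups, whereas the ranges of the other 8 genes overlap.

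Cdkn1a (Entrez 12575, chr17:29090979-29100722) had 416, 915, 420 and 617 normalized counts in control libraries A to D. In sgCcnd1 libraries E to I it had 245, 218, 119, 153 and 160. The highest sgCcnd1 library, E, was below the lowest control, A, by a factor of 1.69. The means were 592 ± 235 (SD, n = 4) and 179 ± 51.2 (SD, n = 5), a log2 difference of -1.69 with a standard error of 0.25. Between 113 and 1044 reads stood behind each value. Counting alone gives a coefficient of variation of 4.31% in the controls and 7.71% in sgCcnd1, against 39.7% and 28.6% observed. In the annotation, 7.68% of the Cdkn1a exon bases are shared with AC167363.2 on the opposite strand, so without knowledge of strand their reads cannot be told apart there. A single control, B, held the highest value, and without it the log2 difference was -1.45.

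Phlda3 (Entrez 27280, chr1:135766085-135769134) encodes a small pleckstrin homology domain protein that competes with the kinase AKT for membrane lipids and so restrains AKT signalling. Its normalized counts were 38.1, 88.5, 50.7 and 74.8 in A to D and 32.8, 32.2, 21.5, 19.0 and 24.1 in E to I. The groups were separate, but narrowly: the lowest control exceeded the highest sgCcnd1 library by a factor of 1.16. The means were 63.0 ± 22.8 (SD, n = 4) and 25.9 ± 6.27 (SD, n = 5), a log2 difference of -1.21 with a standard error of 0.26. Phlda3 rested on 31 to 101 reads in the controls and on 17 to 43 in sgCcnd1. Counting alone gives a coefficient of variation of 20.1% in sgCcnd1, near the observed 24.2%, so differences among those 5 libraries could not be resolved at this depth.

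The regulator and its brakes differed less between the groups. Trp53 (chr11:69580348-69591873) had 534, 451, 563 and 482 normalized counts in A to D and 490, 466, 419, 487 and 404 in E to I. The ranges overlapped between 451 and 490, and the log2 difference was -0.16 with a standard error of 0.10. The protein is regulated largely by its stability, which transcript counts do not measure.

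Mdm2 (chr10:117688875-117710758), the ligase that marks p53 for destruction, had 573, 738, 703 and 765 normalized counts in A to D. In E to I it had 624, 553, 545, 520 and 548. Control A lay inside the sgCcnd1 range, and the other 3 controls lay above all sgCcnd1 libraries. The log2 difference was -0.31 with a standard error of 0.10.

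Ccng1 (chr11:40748552-40755309) encodes cyclin G1, which recruits the phosphatase PP2A to Mdm2. It had 728, 960, 877 and 985 normalized counts in A to D and 675, 737, 652, 632 and 668 in E to I. Here too only control A and one sgCcnd1 library, F, kept the groups from separating. The means were 887 ± 116 (SD, n = 4) and 673 ± 39.5 (SD, n = 5), a log2 difference of -0.39 with a standard error of 0.10.

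Bax and Eda2r belong to the genes of cell death and its receptors. Bax (chr7:45461695-45466903), which permeabilizes the outer mitochondrial membrane in apoptosis, had 279, 451, 284 and 423 normalized counts in A to D. In E to I it had 292, 400, 356, 308 and 247. The ranges overlapped widely, and the log2 difference was -0.15 with a standard error of 0.17. Single libraries moved it by more than 1.5 times, to -0.03 without B, -0.06 without D or I, -0.26 without A, -0.25 without C and -0.23 without F. In the annotation, 12.2% of the Bax exon bases are shared with Gm45808, a gene on the same strand, so reads there could be assigned to either.

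Eda2r (chrX:97333837-97377234), a receptor of the tumour necrosis factor family that binds ectodysplasin A2, had 52.9, 51.7, 70.4 and 62.2 normalized counts in A to D. Its values in E to I were 29.7, 36.7, 49.9, 31.0 and 63.9. Library I was as high as the controls, and the other 4 sgCcnd1 libraries were below every control. The log2 difference was -0.53 with a standard error of 0.23, on 31 to 75 reads per library.

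Trp53inp1 (chr4:11156441-11174379), a stress protein with roles in p53 phosphorylation and autophagy, had 1489, 1970, 1730 and 2236 normalized counts in A to D. Libraries E to I had 1464, 1350, 1689, 1276 and 1714. Control A lay among the sgCcnd1 libraries and the other 3 controls lay above all of them. The log2 difference was -0.30 with a standard error of 0.13.

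Zmat3 (chr3:32334792-32365665) encodes a zinc finger protein that binds RNA and affects splicing and transcript stability. It had 229, 216, 202 and 189 normalized counts in A to D and 177, 161, 144, 130 and 207 in E to I. Library I overlapped the controls and the other 4 sgCcnd1 libraries were below all of them. The log2 difference was -0.37 with a standard error of 0.13.

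Gdf15 (chr8:70629393-70632470), a secreted stress cytokine that suppresses appetite through a hindbrain receptor, had the widest spread of the 10 in the controls. It had 78.7, 160, 243 and 362 normalized counts in A to D and 105, 119, 160, 93.0 and 106 in E to I. The lowest value of all 9 libraries was a control, A, and 0 of 5 sgCcnd1 libraries were below it. The log2 difference was -0.67 with a standard error of 0.34. It was -0.34 without control D and -1.07 without control A, so single controls moved it by more than 1.5 times.

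The direction of each of the 10 genes was the same in every alternative run, including each fit that left out 1 library. Without library H the log2 difference was -1.64 for Cdkn1a and -1.11 for Phlda3.

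**Figure D2:**
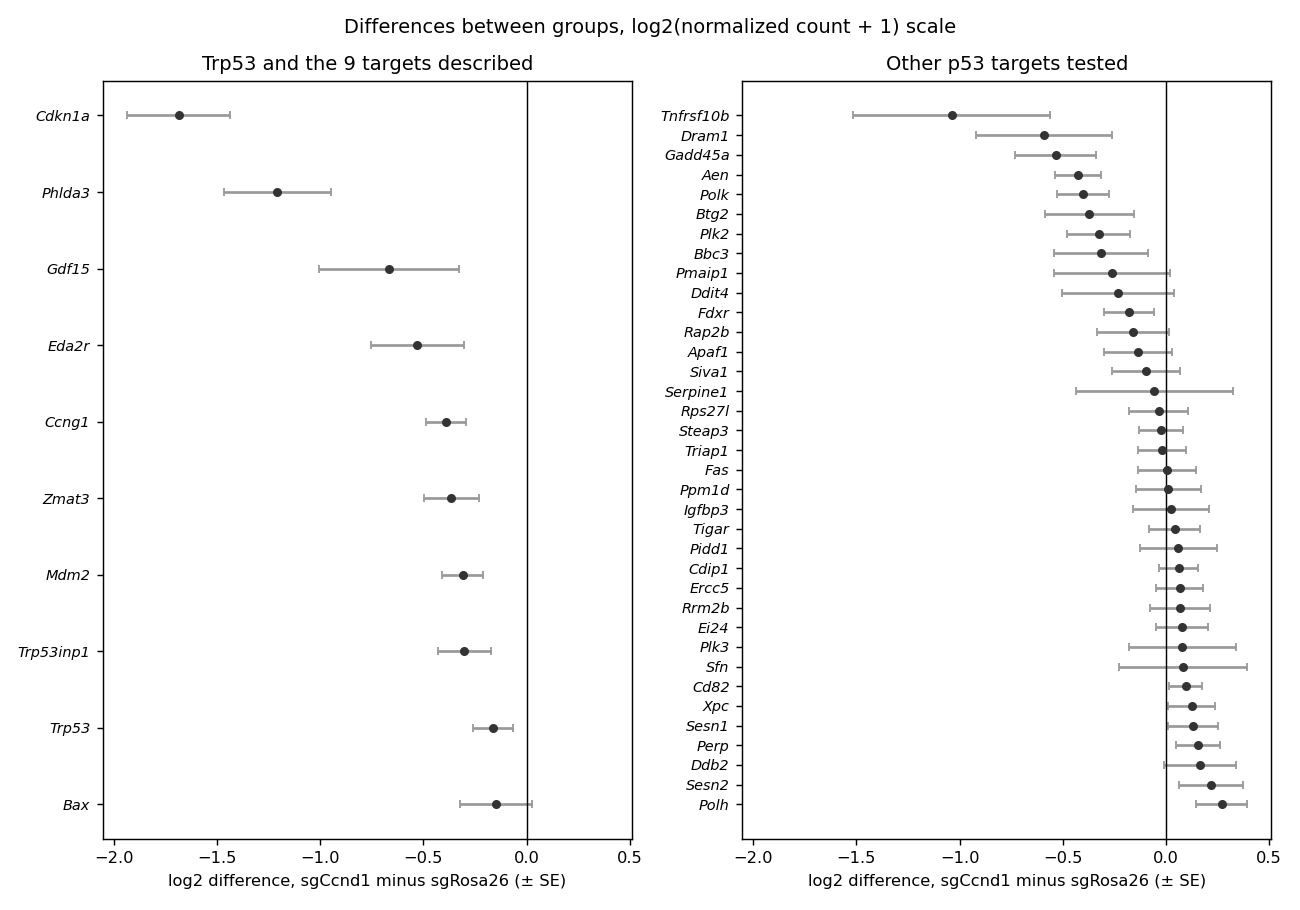
Log2 differences between the groups (horizontal axis, sgCcnd1 minus sgRosa26, on the log2(normalized count + 1) scale) with standard errors, for Trp53 and the 9 targets (left) and for 36 other p53 targets (right). All 10 points on the left lie below 0, and the points on the right are divided evenly, 18 below and 18 above.

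Other genes of the pathway were taken from lists written from general knowledge, which leave out the 10 genes above. Of 40 further p53 targets, 36 reached the minimum mean of 10 normalized counts, and 18 were lower and 18 higher in sgCcnd1. Their median log2 difference was -0.01, close to that of all genes tested. With limma 0 passed in either direction. At an unadjusted p under 0.05 there were 3 lower and 0 higher, where 5.74% of all genes were lower and 5.22% higher. The 3 became 6 without A or E and 5 without F, and the 0 became 2 without D and 1 without A or F. The edgeR model called 0. DESeq2, which gave no adjusted p for 5 of the 36, called 1 lower, Aen (DESeq2 adjusted p = 0.0491), where it called 0.634% of genes lower, and without library H this call was lost (adjusted p = 0.151). The DESeq2 log2 difference of Aen was -0.45 with all libraries and -0.47 without H. The groups did not overlap in 2, both lower, against 1.97% of all genes. The 3 lower ones with the smallest p were Aen, Polk and Gadd45a. Aen, an exonuclease of apoptosis, was at 253 ± 35.3 normalized counts in sgRosa26 (SD, n = 4) and 187 ± 13.1 in sgCcnd1 (SD, n = 5), a log2 difference of -0.43 (limma adjusted p = 0.253), with 5 of 5 libraries under the lowest control. Polk, a translesion DNA polymerase, was at 149 ± 17.0 and 113 ± 14.3 normalized counts, a log2 difference of -0.40 (limma adjusted p = 0.307), again with 5 of 5 libraries under the lowest control. Gadd45a, a growth arrest and DNA repair factor, was at 99.7 ± 17.7 and 69.7 ± 18.9, a log2 difference of -0.53 (limma adjusted p = 0.358), with 4 of 5 libraries under the lowest control.

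On the other side, Polh, Perp and Sesn2 had the smallest p among the targets with higher means. Polh, another translesion polymerase, was at 65.1 ± 7.78 and 78.3 ± 4.52 normalized counts (log2 difference 0.27, limma adjusted p = 0.455). Perp, a desmosome protein, differed by 0.15 and Sesn2, a stress-induced inhibitor of mTORC1 signalling, by 0.22 on the log2 scale (limma adjusted p = 0.621 and 0.625). None of these 6 genes passed in limma.

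Of these further targets 33 had a start-site window, and 9 of them held an exact half-site. Counted by window, 10 of 51 (19.6%) held one, against 8.36% of all windows. Rps27l, a ribosomal protein paralogue, also held a full site with 1 mismatch at chr9:66946296-66946315 (plus strand), 117 bases before an annotated start. It is shown beside the Cdkn1a site because its gene had a log2 difference of -0.04.
Rps27l: atggcGGGCTTGTTGAGACTTGTCCgggcg
Aen, Polk and Gadd45a were among the 9, and their sites are shown because these genes had the smallest p on the lower side. They lie at chr7:78895937-78895946 (plus strand), chr13:96519409-96519418 (minus strand) and chr6:67037438-67037447 (minus strand).
Aen: aagccGGGCTTGTCCgggca
Polk: agcttGAACTAGCCTcaaac
Gadd45a: gctgaGGGCTAGCCCcatat
The 9 genes were not uniformly low: 6 had lower and 3 higher means in sgCcnd1, with log2 differences from -0.53 for Gadd45a to 0.13 for Sesn1. No test was made of this overlap.

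Of 20 genes listed as regulators of p53, 18 were tested, 4 were lower and 14 higher, with a median log2 difference of 0.07. With limma 0 passed, and edgeR and DESeq2 called 0. At an unadjusted p under 0.05 there were 0 in either direction, where 5.74% of all genes were lower and 5.22% higher. At those shares a count of 0 among 18 genes is not a result about them. On the higher side Sirt1, a deacetylase of p53, was at 223 ± 9.27 and 245 ± 4.75 normalized counts (log2 difference 0.14, limma adjusted p = 0.549), with 5 of 5 libraries above all controls. Sirt1 was the 1 regulator of 18 without overlap, against 1.92% of genes tested that were higher without overlap, and nothing is read from this. Prkdc and Atr, kinases of the DNA damage response, were at 0.17 and 0.15 (limma adjusted p = 0.586 and 0.700). On the lower side the log2 differences were -0.05 for Rpl5, -0.03 for Rpl11 and -0.02 for Kat5. Rpl5 and Rpl11 are ribosomal proteins that inhibit Mdm2, and Kat5 is an acetyltransferase of p53.

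Among the other inhibitors of cyclin-dependent kinases, 5 of 6 were tested and 1 was lower. Their median log2 difference was 0.11, and 0 passed in limma and in edgeR. At an unadjusted p under 0.05 there were 0, where 5.74% of all genes were lower and 5.22% higher, and with 5 genes nothing is read from this. DESeq2 called 0 and gave no adjusted p for 1 of the 5. Cdkn1b, which encodes p27 and is the closest of these to Cdkn1a in function, was at 489 ± 39.9 and 527 ± 49.7 normalized counts, a log2 difference of 0.11 (limma adjusted p = 0.703). Cdkn2a, which encodes p16 and the p53 activator ARF, was under the minimum level for testing.

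Proliferation genes that p53 and p21 are known to repress through the DREAM complex were scarce in these livers. Of 24 listed, 13 reached the minimum level, and 11 of these were lower in sgCcnd1, where 47.1% of all genes tested were lower. The median log2 difference of the 13 was -0.35. With limma 0 passed and edgeR called 0. DESeq2 called 0 and gave no adjusted p for 6 of the 13. At an unadjusted p under 0.05 there were 2 lower and 0 higher, where 5.74% of all genes were lower. Single libraries moved the 2 to 5 without A, to 3 without E, to 1 without B, C, H or I and to 0 without D. Without a minimum level 18 of 24 were lower, with a median of -0.37. Rrm2, a ribonucleotide reductase subunit, was the 1 gene of the list with a mean above 50 among those with higher means in sgCcnd1, at 68.5 ± 11.1 and 71.9 ± 12.3 normalized counts. No gene of the list with a lower mean reached 50.

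Gdf15 and Sesn2 also respond to the integrated stress response, in which ATF4 activates genes of amino acid supply. Of 16 genes of that response, 14 were tested, 7 were lower and 7 higher, and the median log2 difference was 0.00. With limma 0 passed and edgeR called 0. DESeq2 called 0 and gave no adjusted p for 2 of the 14. At an unadjusted p under 0.05 there were 2 higher and 0 lower, where 5.22% of all genes were higher and 5.74% lower. The 2 became 0 without G, 1 without A and 3 without B or D, and the 0 became 1 without A or C. Chac1, which degrades glutathione, was at 34.2 ± 7.69 and 69.0 ± 33.9 normalized counts (log2 difference 0.87, limma adjusted p = 0.366). Trib3, a pseudokinase, was at 92.0 ± 18.4 and 130 ± 32.6 (log2 difference 0.48, limma adjusted p = 0.380), and Shmt2, a mitochondrial serine enzyme, differed by 0.07. Atf4 itself was at 1358 ± 102 and 1292 ± 280 normalized counts, a log2 difference of -0.10 (limma adjusted p = 0.838). Atf5 and Asns were at -0.15 and -0.22 on the log2 scale.

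The 10 genes were not evenly spread within the groups. In the controls the coefficient of variation was 57.5% for Gdf15, 39.7% for Cdkn1a, 36.2% for Phlda3 and 25.1% for Bax, and between 8.20% for Zmat3 and 17.3% for Trp53inp1 in the other 6. Among the 500 genes nearest in mean level, Cdkn1a and Gdf15 each varied more than 98.2% of them in the controls, Bax more than 93.0% and Trp53 more than 44.2%. In sgCcnd1 the coefficient of variation was highest for Eda2r, at 34.3%, above 90.6% of its neighbours. Cdkn1a, at 28.6%, varied more than 97.0% and Bax, at 18.5%, more than 90.8% of theirs, whereas Ccng1 (5.87%) and Mdm2 (7.03%) varied more than 19.8% and 29.4%. Single libraries moved some of these values by more than 1.5 times. Without B the coefficient of variation of Cdkn1a in the controls was 23.7%, and without A that of Mdm2 was 4.25% and that of Ccng1 6.02%. In sgCcnd1 it was 2.75% for Mdm2 without E, 2.96% for Ccng1 without F and 10.1% for Gdf15 without G.

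Control libraries B and D were the highest pair in 6 of the 10 genes, namely Cdkn1a, Phlda3, Mdm2, Ccng1, Bax and Trp53inp1. Library A was the lowest control in 7 of the 10, the exceptions being Trp53, Eda2r and Zmat3. In sgCcnd1, library H was the lowest in 6 genes, and E was the highest in 4. The order of the sgCcnd1 libraries for Phlda3 lies within about the counting error given above. Trp53 itself ran the other way in the controls, highest in C and lowest in B. Library A also had the fewest reads among the controls, 12.2 M, and the part of depth in this order was not tested.

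**Figure D3:**
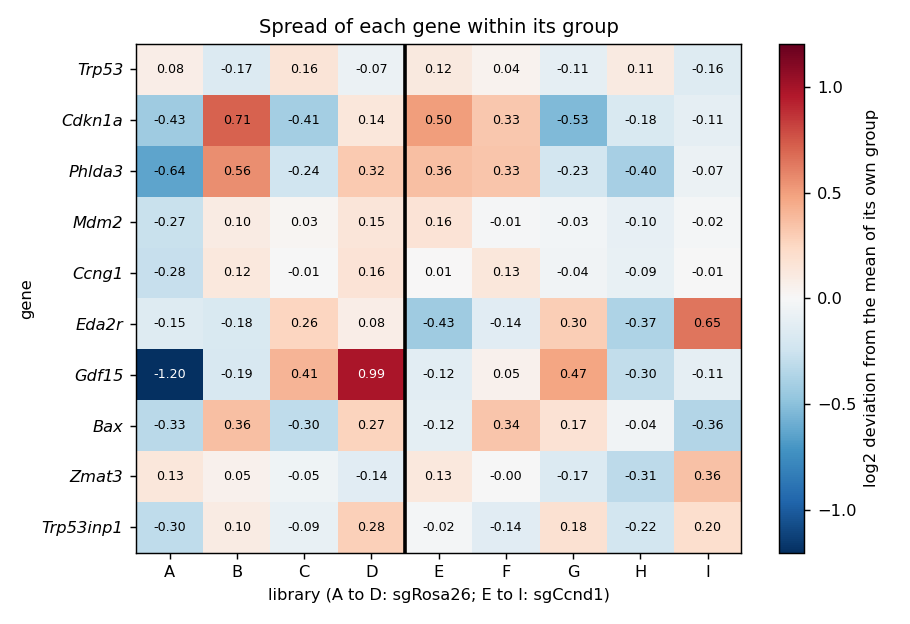
Log2 deviation of each gene (rows) from the mean of its own group in each library (columns; A to D sgRosa26, E to I sgCcnd1), with the colour scale in log2 units. In the controls Cdkn1a and Phlda3 are both highest in B and D, and Trp53 deviates little, between -0.17 and 0.16.

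After subtraction of the group means, Cdkn1a and Phlda3 deviated together over the 9 libraries (Pearson r = 0.90, Spearman rho = 0.88). Without B and E, the libraries farthest from the median of Cdkn1a, r was 0.83 over 7. Phlda3 was also close to Ccng1 (r = 0.89) and Mdm2 (r = 0.85). Its r was 0.67 with Bax, 0.51 with Trp53inp1, 0.44 with Gdf15, 0.15 with Zmat3, -0.18 with Eda2r and -0.37 with Trp53. The r of Cdkn1a was 0.67 with Ccng1, 0.66 with Mdm2, 0.55 with Bax and 0.215 with Zmat3. It was 0.19 with Trp53inp1, 0.05 with Gdf15, -0.21 with Trp53 and -0.47 with Eda2r. These values describe libraries that share depth and tissue composition, and no test was made. Among 10343 other genes whose mean reached 50 normalized counts, the 5 most like Cdkn1a by this measure were Lgalsl (r = 0.96), Cd68 (0.96), 9530082P21Rik (0.95), Hlx (0.95) and Ppard (0.95). The 5 most like Phlda3 were Hlx (r = 0.97), Ppox (0.96), Rab34 (0.95), Ppil1 (0.94) and Psmb9 (0.94). Cd68 is a macrophage marker whose own level was lower in sgCcnd1 without overlap (values are given with the other markers). Hlx is a homeobox factor, Ppard a nuclear receptor, Ppox a haem synthesis enzyme and Psmb9 a subunit of the immunoproteasome. With so many genes and 9 libraries, values of this size are to be read as a ranking.

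Levels of different genes were compared as normalized counts per kilobase of annotated exon. In the controls Trp53inp1 (287 per kilobase), Ccng1 (253) and Bax (228) led, followed by Cdkn1a (167), Mdm2 (137), Trp53 (125) and Gdf15 (114). Phlda3 (40.4), Zmat3 (18.3) and Eda2r (10.1) were the lowest. The library ranges of neighbours overlapped at every step from Trp53inp1 to Phlda3, and did not overlap from Phlda3 to Zmat3 and from Zmat3 to Eda2r. In sgCcnd1 the order was Trp53inp1 (231), Bax (203), Ccng1 (192), Trp53 (112), Mdm2 (110), Gdf15 (63.0), Cdkn1a (50.4), Phlda3 (16.6), Zmat3 (14.3) and Eda2r (7.17). There the ranges were separate between Ccng1 and Trp53, between Mdm2 and Gdf15, between Cdkn1a and Phlda3, and between Zmat3 and Eda2r. Cdkn1a was thus in place 4 of 10 in the controls and in place 7 in sgCcnd1, while the first 3 places were held by the same 3 genes.

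Markers of other cell types were measured beside these values. T and NK cell markers were lower in sgCcnd1 in 10 of 10 genes listed, of which 6 reached the minimum level for testing. With limma 0 of the 6 passed. At an unadjusted p under 0.05 there were 6 lower and 0 higher, where 5.74% of all genes were lower. Their summed level was 109 to 291 normalized counts in the controls and 55.0 to 193 in sgCcnd1, and the mean log2 level differed by -0.96 (exact two-sided permutation p = 0.0317; 0.286 adjusted over the 9 marker lists). With a pseudocount of 10 in place of 1 it differed by -0.53. The order of the libraries was the same as for Cdkn1a in part. Control B and sgCcnd1 library E were the highest of their groups for both. Control C was nearly as high as B for the markers (mean log2 levels 4.37 and 4.40) but had 420 normalized counts of Cdkn1a against 915. Within sgCcnd1, F was second for Cdkn1a and next to lowest for the markers, and the lowest was G for Cdkn1a and H for the markers. Kupffer and macrophage markers summed to 3526 to 4673 normalized counts in the controls and 3260 to 4075 in sgCcnd1, with 8 of 11 genes lower. Their mean log2 level differed by -0.18 (exact permutation p = 0.198, adjusted 0.371). One of these, Cd68, which followed Cdkn1a within the groups, was at 153 ± 25.0 normalized counts in sgRosa26 (SD, n = 4) and 93.9 ± 19.9 in sgCcnd1 (SD, n = 5). Its log2 difference was -0.71 (limma adjusted p = 0.245), and all 5 sgCcnd1 libraries were below the lowest control, as for 1.97% of genes tested. DESeq2 called Cd68 (adjusted p = 0.0265) and did not without library H (log2 difference -0.66, adjusted p = 0.132). Stellate and fibroblast markers were lower in 9 of 10 genes, with sums of 3840 to 6463 and 3474 to 5301. Their mean log2 level differed by -0.38 (exact permutation p = 0.111, adjusted 0.333).

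B and plasma cell markers were lower in 7 of the 7 genes tested, with sums of 1216 to 2890 and 982 to 3024 normalized counts. Their mean log2 level differed by -0.37 (exact permutation p = 0.206, adjusted 0.371). Neutrophil markers summed to 146 to 230 and 114 to 217, and the defining marker Ly6g was at or near 0 in all 9 libraries. The mean log2 level of the neutrophil list differed by -0.34 (exact permutation p = 0.111, adjusted 0.333). Differences of the cholangiocyte, endothelial, hepatocyte and red cell lists were -0.21, -0.09, 0.05 and 0.04 on the log2 scale (exact permutation p of 0.405 or more). None of the 9 lists passed the adjustment. The smallest p this design allows is 0.00794 before adjustment, so 1 list alone could not reach an adjusted p under 0.05. Nothing is read from the lists not passing. The hepatocyte difference was 0.27 with the median over markers and 0.01 to 0.08 with 1 library left out. The part of T and NK cells, or of other cell types, in the Cdkn1a and Phlda3 values was not tested.

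**Figure D4:**
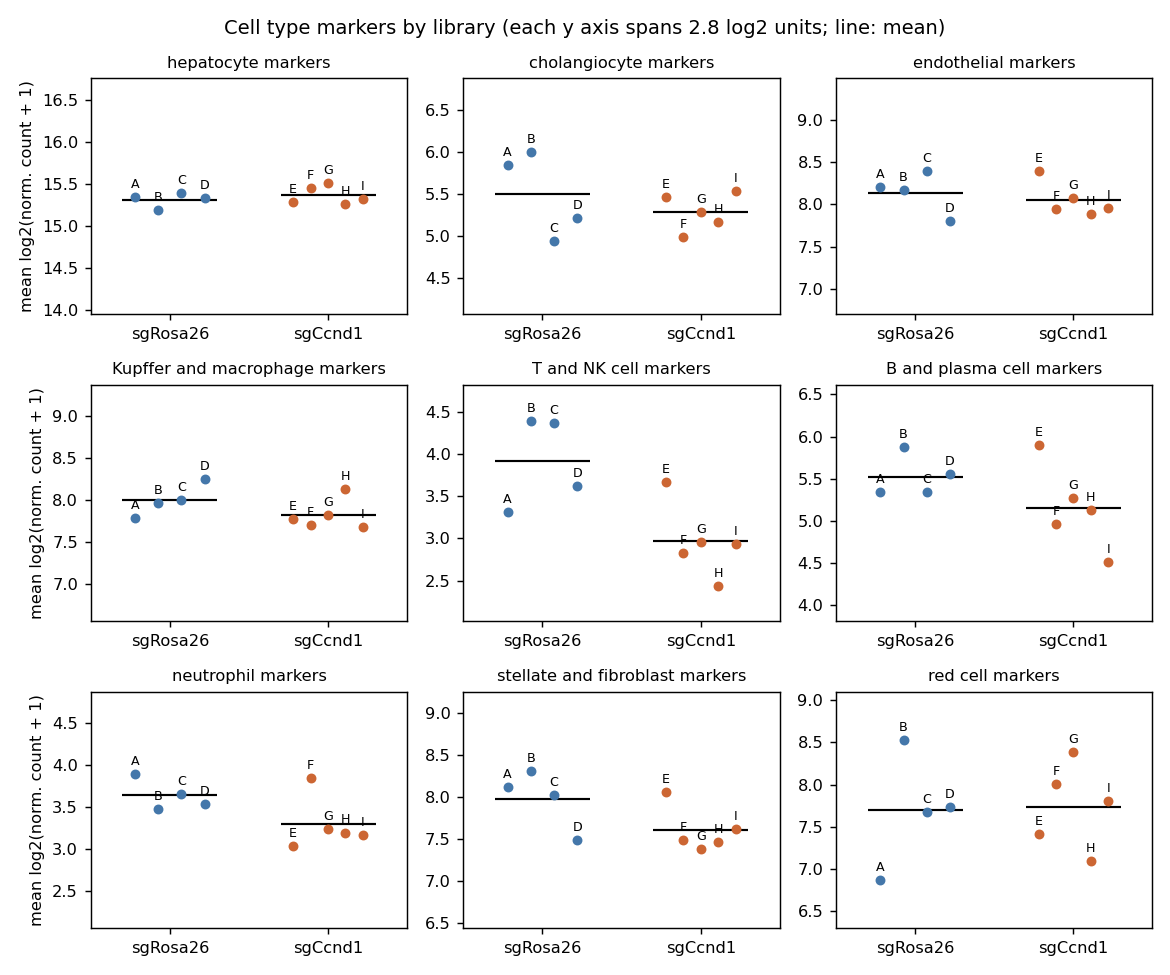
Mean log2(normalized count + 1) of the markers of 9 cell types (vertical axes, each spanning the same number of log2 units) in each library (points A to I), with group means (lines). T and NK cell markers show the largest difference between group means, -0.96, and hepatocyte markers one of 0.05.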

How the data were processed

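The authors deposited 1 table of 27179 Entrez genes, whose values (a signal that is never negative, named normalized counts in the file name) are reads divided by a size factor. Per the submitters' processing notes, Trim Galore 0.6.7, HISAT2 2.2.1, featureCounts 2.0.3 and a DESeq2 wrapper 2.11.40.8 were used with mm10 or GRCm38. Use of strand is not given in the sources used here, so reads of overlapping genes may be shared. In all 9 libraries 100% of values were whole multiples (within 0.01) of the value of 1 read, which gave back the reads. Both count models were also repeated without library H, which stood apart in Ddx3y.

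The deposited values were put on a log2(normalized count + 1) scale, keeping 12993 genes whose mean reached 10. Groups were compared with limma 3.58.1 (R 4.3.3; lmFit, eBayes with an intensity trend, no covariates, two-sided), with Benjamini-Hochberg adjustment over all genes and a threshold of 0.05. Fold changes on this scale understate changes of low genes. Alternatives were other pseudocounts, filters, scalings and weights, each library left out, edgeR 4.0.16 (quasi-likelihood) and DESeq2 1.42.0 on the recovered reads. Marker lists were compared by exact permutation of the mean log2 level over the markers, and the sums were not tested. The fits were tested on simulated data.

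The 10 genes and the lists were chosen with earlier results of these data known. From each further list, up to 3 genes per direction with the smallest p and a mean of at least 50 were named, and for Cdkn1a and Phlda3 the 5 genes with the most similar deviations from the group means. Cell type marker sums used every listed gene in the table. Gene positions and start-site windows are from RefSeq (GRCm38.p6) and exon lengths from GENCODE annotation of the same build. Counting error covers reads, not molecules. Figures were drawn with matplotlib 3.10.9.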

Additional observations from a re-analysis of the deposited data

Results flagged for a closer look

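Of 42 groups of values examined, 2 held a library far from the others of its group, where chance flags about 1 in 20. The shallowest control was library A, with 12.2 M reads (M, mega), the remaining controls having 16.2 to 16.6 M. The mean log2 level of the neutrophil markers was 3.85 in sgCcnd1 library F against 3.04 to 3.24 in the rest of its group. None of the 10 p53 genes held such a library in either group.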

How the results depend on the processing

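No paired analysis was possible because column headings hold animals without replicate numbers. The log2 differences of the 10 genes stayed negative in all alternatives that could be run, 21 for each gene but Phlda3 and Eda2r, which did not reach a minimum mean of 100. None moved by more than the spread between libraries. Leaving out each library in turn gave -1.83 to -1.45 for Cdkn1a, -1.42 to -1.02 for Phlda3, -1.07 to -0.34 for Gdf15 and -0.26 to -0.03 for Bax. Over the whole table limma called 1 gene lower. Quantile normalization gave 2, the DESeq2 model 76 (25 when H was left out), the edgeR model without H 0, and limma 0 to 2 when 1 library was left out. It was 0 without B, D, F, H or I and 2 without E or G. Genes called higher were 0 in limma, 41 in the DESeq2 model and 16 in that model when H was left out. The models without H were chosen after seeing the data. DESeq2 called 3 of the 10 genes with all libraries and 2, Cdkn1a and Phlda3, without H. It called 1 of the further p53 targets lower with all libraries, and 0 without H, against 0 in limma. The Ccnd1 difference was -1.11 to -0.96 when 1 library was left out and -1.02 in the edgeR model without H, which no longer called it. The red cell difference, 0.04, reversed to -0.12 with the median over markers, and ranged from -0.24 (without A) to 0.32 (without B) when 1 library was left out, also below 0 without F (-0.03) or G (-0.12). Leaving out each library gave 0.01 (without B) to 0.08 for the hepatocyte list, -0.40 (without C) to -0.05 (without B) for the cholangiocyte list and -0.20 (without D) to -0.0047 (without C) for the endothelial list. It gave -0.26 to -0.10 (without D) for Kupffer cells, -1.16 to -0.80 for T and NK cells, -0.55 (without E) to -0.21 (without I) for B cells, -0.48 to -0.26 for neutrophils and -0.54 to -0.27 for stellate cells. The median over markers gave 0.27 for hepatocytes, -0.02 for cholangiocytes, -0.12 for neutrophils, -0.58 for stellate cells and -1.25 for T and NK cells. With a pseudocount of 10 T and NK cells were at -0.53, neutrophils at -0.16 and B cells at -0.24. The cause was not tested. No gene of the DREAM list reached a mean of 100, so that alternative gave no value for it. Depth limited Phlda3 and Eda2r most, with 17 to 101 and 31 to 75 reads.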
